A study of Mus musculus with 58 samples.

Results

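The genes described here are those of the mouse proteasome, taken as every gene whose symbol starts with Psm, followed by a letter from a to g and a digit, and that lies on a probe set annotated with a single symbol. This rule found 49 of the 18820 genes measured. They comprise 7 core alpha genes (Psma), 8 constitutive core beta genes (Psmb), the 3 immunoproteasome genes Psmb8, Psmb9 and Psmb10, 6 ATPase genes (Psmc), 14 non-ATPase genes (Psmd), 4 activators (Psme), 5 genes of an inhibitor and of core assembly factors (Psmf1 and Psmg1 to Psmg4), and 2 genes that match the rule without being a subunit (Psmc3ip and Psme3ip1). The core alpha, constitutive core beta, ATPase and non-ATPase genes are called the 35 constitutive genes below. This name marks a grouping by symbol, since they include the testis subunit Psma8, the thymic subunit Psmb11 and the assembly chaperones Psmd5, Psmd9 and Psmd10. Psma4 lies on a probe set shared with another symbol and is given apart.

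Expression was measured on microarrays in m. extensor digitorum longus (EDL), m. soleus (SOL) and heart of male CD2F1 mice (BALB/c x DBA/2, 6 to 8 weeks old at the start), killed at day 19. Mice without a tumour had a sham injection of buffer (C), mice with a tumour (T) had C26 adenocarcinoma cells placed under the skin of the flank, and both kinds were also kept with whole-body vibration training of 15 min per day at 45 Hz and 1.0 g (C + WBV and T + WBV). EDL and SOL of the same 23 mice gave 6 C, 6 C + WBV, 6 T and 5 T + WBV arrays per muscle, and 3 mice of each group also gave a heart array. The tumour is a transplanted cell line in 1 hybrid strain, all mice were male, and the comparisons address what the tumour and the training do to these tissues.

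Each value is a log2 intensity, so a difference of 1 is a doubling, and a gene is said to have risen or fallen where limma with Benjamini-Hochberg adjustment over all genes gave an adjusted p under 0.01. The number of arrays limits the precision. The arrays had medians of 4.515 to 4.603, and the median correlation of an array with those of its group was 0.969 to 0.988. The 5 fast muscle markers averaged 12.73 to 12.85 in EDL of C mice, against 9.2 to 9.79 in SOL and 3.93 to 4.11 in heart. The 5 measured heart markers averaged 12.4 to 12.46 in heart of C mice and at most 4.8 in either muscle of C mice. The C arrays therefore carry the tissue of their labels. In the other groups of SOL the fast muscle markers averaged 9.67 to 11.24 (C + WBV), 8.58 to 10.02 (T) and 8.81 to 10.88 (T + WBV). In EDL their lowest average was 12.01, in T. The part of this spread in the SOL comparisons was not tested. The median difference over all genes lay between -0.034 and 0.023 in the comparisons reported.

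The proteasome is the protease that degrades proteins tagged with ubiquitin. Its core particle is a barrel of alpha rings, which gate the entrance, around beta rings, of which Psmb5, Psmb6 and Psmb7 carry the catalytic sites; interferon-gamma and inflammation can exchange these for Psmb8, Psmb9 and Psmb10, giving the immunoproteasome, whose peptides feed MHC class I presentation. The regulatory particle caps the barrel, with ATPases that unfold the substrate, ubiquitin receptors, and a lid that removes ubiquitin, and in skeletal muscle the system is known for breaking down myofibrillar protein during wasting.

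The promoter stretches of 8 genes on which the results turn are shown, as given by RefSeq on GRCm38.p6, so that the genes that rose, those that fell and the catalytic subunits that passed no test can be read side by side. Each runs over the 200 bases before the transcript start on which the RefSeq window is built. For Psmb6 the gene as annotated begins upstream of that start, at position 70525324, so the end of its stretch, with the marked match, lies inside the gene. Capitals mark matches on either strand to 4 short motifs that a search looked for, namely the antioxidant response element core TGACNNNGC, the interferon-stimulated response element core (GAAA, any 2 bases, GAAA), the gamma-activated site TTCNNNGAA and the CCAAT box CCAAT, with N for any base. Psma7, Psmd4 and Psmd8 rose in both muscles, Psmb5 and Psmb6 are constitutive catalytic subunits, Psmb8 and Psmb9 are inducible ones, and Psme1 is an activator subunit.
Psma7 (chr2:180042465-180042664, minus strand): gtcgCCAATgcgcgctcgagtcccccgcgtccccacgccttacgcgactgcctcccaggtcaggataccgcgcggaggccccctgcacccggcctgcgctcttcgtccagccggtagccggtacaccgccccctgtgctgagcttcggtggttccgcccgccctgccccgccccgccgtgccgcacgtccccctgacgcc
Psmd4 (chr3:95042615-95042814, minus strand): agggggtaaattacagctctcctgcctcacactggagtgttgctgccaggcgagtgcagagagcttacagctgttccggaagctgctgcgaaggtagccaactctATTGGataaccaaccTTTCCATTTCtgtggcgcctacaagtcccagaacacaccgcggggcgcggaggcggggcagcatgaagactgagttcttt
Psmd8 (chr7:29180674-29180873, minus strand): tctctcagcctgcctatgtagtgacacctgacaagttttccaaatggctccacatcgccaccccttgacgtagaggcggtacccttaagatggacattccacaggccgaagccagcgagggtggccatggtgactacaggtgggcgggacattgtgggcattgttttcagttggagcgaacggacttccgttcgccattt
Psmb5 (chr14:54617996-54618195, minus strand): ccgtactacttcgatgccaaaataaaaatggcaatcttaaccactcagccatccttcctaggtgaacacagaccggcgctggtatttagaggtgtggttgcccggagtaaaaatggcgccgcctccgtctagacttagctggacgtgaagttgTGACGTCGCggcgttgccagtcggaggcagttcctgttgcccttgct
Psmb6 (chr11:70525157-70525356, plus strand): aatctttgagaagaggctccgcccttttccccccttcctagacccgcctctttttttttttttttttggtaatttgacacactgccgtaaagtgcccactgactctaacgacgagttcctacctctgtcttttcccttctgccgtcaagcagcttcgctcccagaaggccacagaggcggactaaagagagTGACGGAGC
Psmb8 (chr17:34197995-34198194, plus strand): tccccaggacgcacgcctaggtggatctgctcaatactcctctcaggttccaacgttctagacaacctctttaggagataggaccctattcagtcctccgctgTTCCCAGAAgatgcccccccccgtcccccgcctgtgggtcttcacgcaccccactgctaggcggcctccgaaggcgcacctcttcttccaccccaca
Psmb9 (chr17:34187331-34187530, minus strand): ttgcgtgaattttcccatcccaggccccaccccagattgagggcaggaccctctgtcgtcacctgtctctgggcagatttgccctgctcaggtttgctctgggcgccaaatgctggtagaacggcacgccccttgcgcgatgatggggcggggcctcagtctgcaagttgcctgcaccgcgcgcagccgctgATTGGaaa
Psme1 (chr14:55578294-55578493, plus strand): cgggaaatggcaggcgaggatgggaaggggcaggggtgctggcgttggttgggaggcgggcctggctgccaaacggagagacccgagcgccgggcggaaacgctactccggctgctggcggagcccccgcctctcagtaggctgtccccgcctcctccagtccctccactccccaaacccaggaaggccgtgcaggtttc

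Among these stretches, the antioxidant response element core stands in Psmb5 and Psmb6, the gamma-activated site in Psmb8, the interferon-stimulated response element core in Psmd4, and the CCAAT box in Psma7, Psmd4 and Psmb9, whereas Psmd8 and Psme1 hold none of these letters. Over windows from 250 bases before to 50 after the start, 41 of the 49 genes have an entry, and Psma8, Psmb1, Psmb2, Psmb7, Psmc3, Psmd3, Psmd7 and Psmg2 do not. The antioxidant response element core was found in 6 of the 41 (Psmb5, Psmb6, Psmc6, Psmd9, Psmd12 and Psme4), against 12.4% of the 32851 promoter windows of the table. The interferon-stimulated response element core was found in 5 of the 41 (Psmb3, Psmd4, Psmd9, Psme1 and Psmg4, in Psme1 past the start), against 3.44% of windows. The gamma-activated site was found in 3 (Psmb8, Psmd2 and Psmg1), against 8.3%, and the CCAAT box in 16, against 37.4%. Genes that rose and genes that passed no test both occur among the matches, and a match describes letters and not a bound factor.

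In EDL, the difference between T and C varied by particle and also between genes of 1 particle. Of the 35 constitutive genes 24 rose and 0 fell in T against C, with a median difference of 0.50 on the log2 scale, while 10.7% of all genes rose and 11.6% fell. The 3 immunoproteasome genes and Psme1 fell, Psmb5, Psmb6 and Psmb7 passed no test, and the inhibitor gene Psmf1 rose. Since whole muscle was measured, fewer cells of a type and less RNA per cell cannot be told apart.

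**Figure D1:**
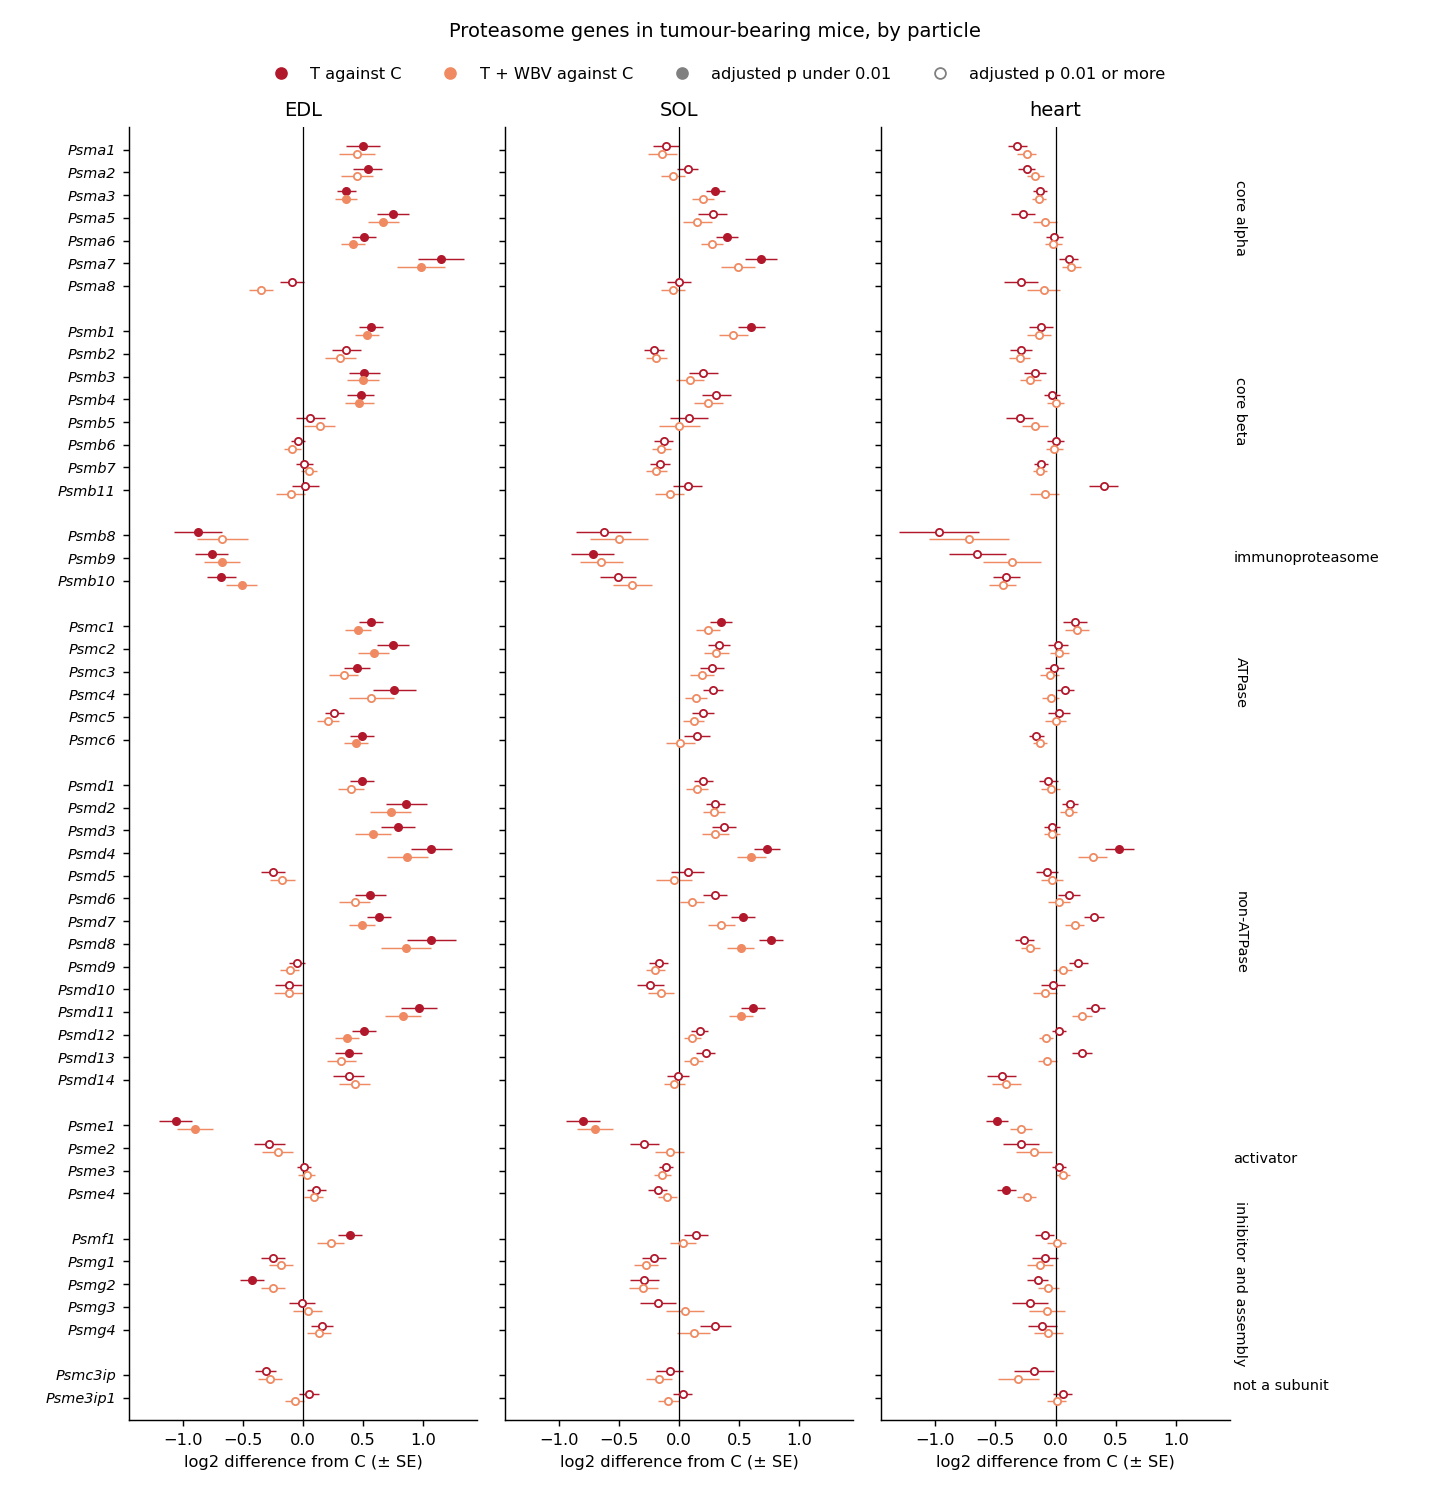
Log2 difference from C (± SE) of the 49 genes, grouped by particle, in EDL, SOL and heart, for T (dark red) and T + WBV (orange), where filled points have an adjusted p under 0.01. Core alpha genes other than Psma8, all ATPase genes and most non-ATPase genes lie right of 0 in EDL, and the immunoproteasome genes and Psme1 lie left of 0 in all 3 tissues.

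Of the core alpha genes 6 of 7 rose in EDL. Psma7, an alpha ring subunit, was at 8.87, 8.97 and 9.10 (lowest, median and highest) in C and at 9.31, 10.14 and 10.78 in T. The lowest T array lay above every C array, and Psma7 rose 2.23-fold (1.15 ± 0.19 on the log2 scale, SE, 6 arrays per group, limma adjusted p = 4.77e-05). Psma5 rose by 0.75 ± 0.13, also without overlap of T and C. Psma2, Psma6, Psma1 and Psma3 rose by 0.54, 0.51, 0.50 and 0.36, respectively. Psma8, the alpha subunit of the testis, differed by -0.09 and lay near the bottom of the range of the arrays in both groups, with means of 2.80 and 2.89.

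Of the 8 constitutive core beta genes 3 rose, and they are structural subunits without a catalytic site. Psmb1 rose by 0.57 ± 0.10 (adjusted p = 8.15e-05), Psmb3 by 0.51 and Psmb4 by 0.48, whereas the difference of Psmb2, 0.36, had an adjusted p of 0.0236. Psmb5, the chymotrypsin-like subunit, was at 7.87, 8.12 and 8.42 in C and at 7.93, 8.18 and 8.74 in T. The groups overlapped almost fully, and the difference was 0.06 (95% interval -0.19 to 0.31, adjusted p = 0.771). The caspase-like subunit Psmb6 differed by -0.04 (-0.17 to 0.09) and the trypsin-like subunit Psmb7 by 0.01 (-0.13 to 0.15). These intervals reach neither the difference of Psmb1 nor the median of the constitutive genes, and Psmb11, the thymic beta subunit, was near the bottom of the range with a difference of 0.02.

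Of the 6 ATPase genes, whose products form the unfolding ring at the base of the regulatory particle, 5 rose in EDL. Psmc4 rose by 0.76 ± 0.18 and Psmc2 by 0.75 ± 0.13, which is 1.69-fold and 1.68-fold. In Psmc4 the lowest T array, 8.11, lay below all C arrays (8.14 to 8.29), while the median of T was 9.14. In Psmc2 the T arrays (8.76 to 9.65) lay above those of C. Psmc1, Psmc6 and Psmc3 rose by 0.57, 0.49 and 0.45, and Psmc5 differed by 0.26 with an adjusted p of 0.0167.

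The 14 non-ATPase genes divided by role. All 3 genes of the scaffold and of the ubiquitin receptor rose: Psmd4, which binds ubiquitin chains, was at 8.43, 8.55 and 8.66 in C and at 8.87, 9.74 and 9.97 in T, without overlap. It rose by 1.07 ± 0.17 (2.1-fold, adjusted p = 2.63e-05), the scaffold Psmd2 by 0.86 ± 0.17 and the scaffold Psmd1 by 0.49. Of the 8 lid genes 7 rose, with a median of 0.60. Psmd8 was at 8.68, 8.90 and 9.12 in C and at 8.94, 10.03 and 10.68 in T, and rose by 1.07 ± 0.20 (adjusted p = 0.000202), with 1 T array inside the range of C. Psmd11, which clamps the lid to the base, rose by 0.97 ± 0.15 (adjusted p = 2.17e-05), without overlap. Psmd3, Psmd7, Psmd6, Psmd12 and Psmd13 rose by 0.79, 0.63, 0.56, 0.51 and 0.38, and Psmd14, the deubiquitinase of the lid, differed by 0.38 with an adjusted p of 0.0245. The remaining 3 genes, Psmd5, Psmd9 and Psmd10, encode chaperones that assemble the base and are not part of the finished particle. None of these 3 passed the test with limma, their differences being -0.25, -0.05 and -0.12. Of them Psmd5 had an unadjusted limma p under 0.05 (0.0186), as had 7277 of all 18820 genes.

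**Figure D2:**
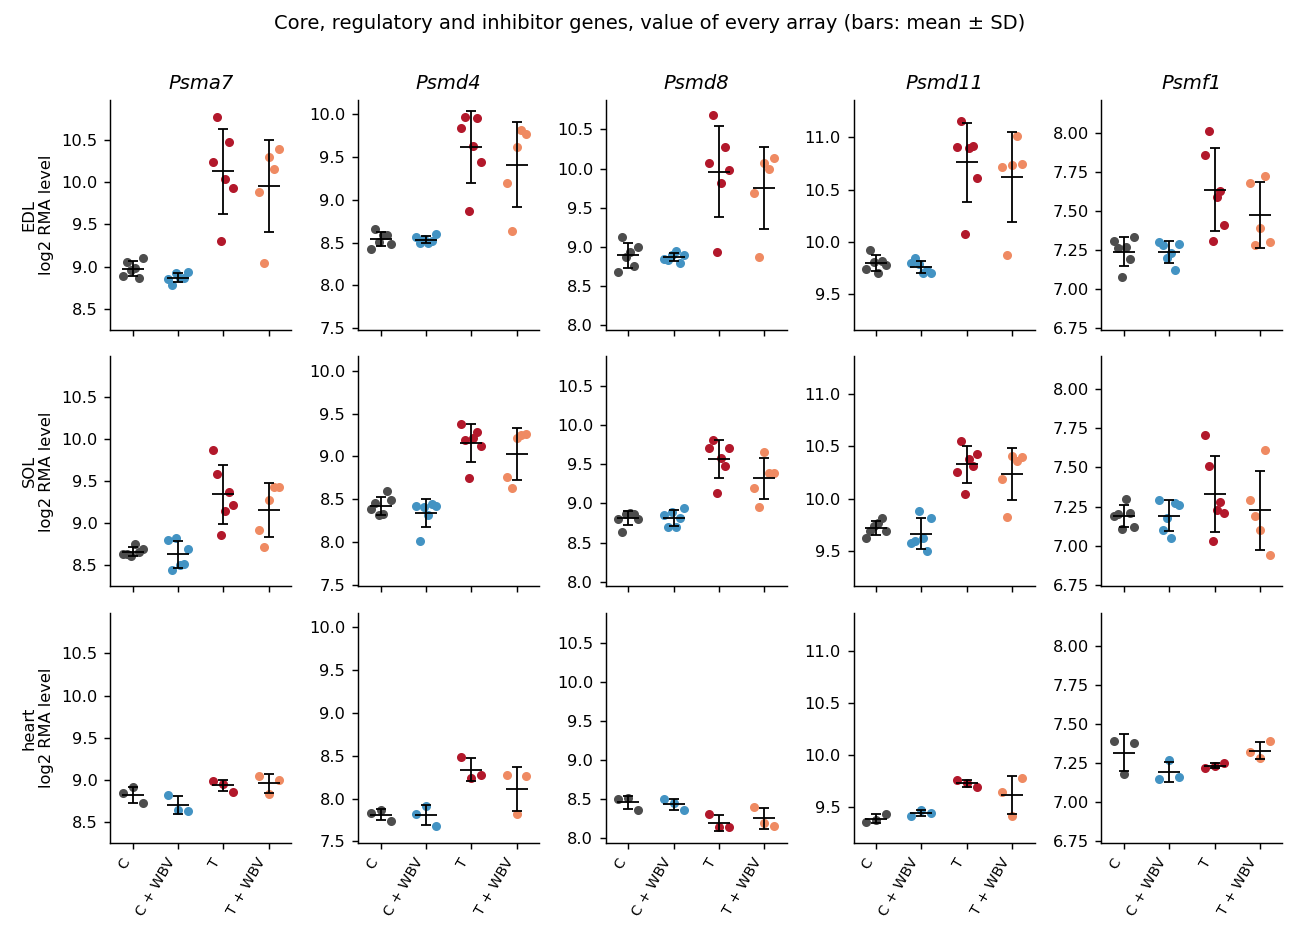
Log2 level of Psma7, Psmd4, Psmd8, Psmd11 and Psmf1 in every array (points; bars are mean ± SD) by group and tissue. In EDL the T and T + WBV arrays spread widely above C and C + WBV, with 1 low array in each, and in heart Psmd4 of T lies above C while Psmd8 does not.

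The inducible catalytic subunits went the other way in EDL. Psmb8 was at 5.80, 6.70 and 7.14 in C and at 5.42, 5.73 and 5.97 in T, so that C was the more spread group and overlapped T at its low end. It fell 1.82-fold (-0.87 ± 0.20, adjusted p = 0.00157). Psmb9 fell 1.69-fold (-0.76 ± 0.14, adjusted p = 0.000217), with T at 4.78, 4.84 and 5.20 against 5.19, 5.74 and 6.11 in C. Psmb10 fell by 0.68 ± 0.12 (adjusted p = 9.4e-05), and its T arrays (5.80 to 6.41) did not reach those of C (6.49 to 6.73).

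The activators were unequal. Psme1 encodes 1 of the subunits of PA28, an interferon-inducible cap that opens the core without ATP, and was at 8.72, 8.84 and 9.08 in C and at 7.49, 7.72 and 8.53 in T. The groups did not overlap, and Psme1 fell 2.09-fold (-1.06 ± 0.14, adjusted p = 7.12e-06). Its partner Psme2 differed by -0.28 ± 0.13 (adjusted p = 0.0983). Psmb8, Psmb9, Psmb10, Psme1 and Psme2 are called the 5 immunoproteasome and PA28 genes below. Psme3, the nuclear activator, and Psme4, the activator PA200, differed by 0.01 (-0.12 to 0.14) and 0.11 (-0.05 to 0.28).

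Psmf1, an inhibitor of the core, rose by 0.39 ± 0.10 in EDL (adjusted p = 0.00369), from 7.08 to 7.33 in C to 7.31 to 8.01 in T. Psmg1 to Psmg4 encode chaperones that pair up to build the alpha ring. Psmg2 fell by 0.42 ± 0.10 (adjusted p = 0.00137), and its partner Psmg1 differed by -0.25 (adjusted p = 0.0558). Psmg3 and Psmg4 differed by -0.01 and 0.16. Neither gene that is no subunit passed the test: Psmc3ip, a meiotic recombination factor, differed by -0.31 (adjusted p = 0.0122), and Psme3ip1, which binds Psme3, by 0.05. The probe set shared by Psma4 and AY074887 gave 9.78 to 9.94 in C and 9.93 to 11 in T of EDL, a difference of 0.68 (exact permutation p = 0.00433, two-sided), and 0.13 in SOL (exact permutation p = 0.147). In heart the Psma4 probe set differed by -0.28, with T at 9.49 to 9.6 and C at 9.8 to 9.87 (exact permutation p = 0.1). No smaller exact p is possible with 3 against 3 arrays. The probe set shared by Psme2 and Psme2b differed by -0.24 in EDL (exact permutation p = 0.121).

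In SOL fewer genes passed the test than in EDL. Of the 35 constitutive genes 9 rose and 0 fell in T against C, with a median difference of 0.22, while 5.06% of all genes rose and 8.66% fell. The 9 were Psma3, Psma6, Psma7, Psmb1, Psmc1, Psmd4, Psmd7, Psmd8 and Psmd11, and each had also risen in EDL of the same mice. Psma1, which rose in EDL, differed by -0.11 in SOL, and Psmb2, by -0.21, neither passing the test. Psmb9 and Psme1 fell. Without T replicate 3, the count of constitutive genes that rose was 14, and the share of all genes in that fit is not given here.

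Psmd8 was at 8.64, 8.83 and 8.88 in C and at 9.14, 9.64 and 9.81 in T of SOL, and rose by 0.76 ± 0.10 (adjusted p = 1.72e-05). Psmd4 rose by 0.73 ± 0.11 (adjusted p = 6.79e-05), Psma7 by 0.68 ± 0.13 (adjusted p = 0.000673) and Psmd11 by 0.61 ± 0.10. In these 4 genes no T array lay within the range of C, which also held for Psma3, Psma6, Psmb1, Psmb4, Psmd2 and Psmd3. The share of all genes without overlap of T and C is not given here for any tissue. Psmb1, Psmd7, Psma6, Psmc1 and Psma3 rose by 0.60, 0.53, 0.40, 0.35 and 0.30. Psmd3 and Psmd2 missed the threshold narrowly, with differences of 0.37 and 0.30 and adjusted p of 0.0103 and 0.011. Psmc2 was in the same position, at 0.33 with an adjusted p of 0.0121, and Psmb4 at 0.31 with 0.0583. At the other end Psma8, Psmb11, Psmc6 and Psmd14 differed by 0.00, 0.07, 0.15 and -0.01. The intervals of the catalytic subunits were -0.25 to 0.41 for Psmb5, -0.30 to 0.03 for Psmb6 and -0.33 to 0.01 for Psmb7.

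Psme1 was at 8.70, 8.88 and 9.01 in C and at 7.48, 8.02 and 8.48 in T of SOL, without overlap, and fell 1.74-fold (-0.80 ± 0.14, adjusted p = 0.000229). Psmb9 fell 1.65-fold (-0.72 ± 0.18, adjusted p = 0.00384), with T at 4.48 to 5.46 and C at 5.15 to 6.13. With C replicate 2, 4 or 5 or T replicate 5 or 6 left out, 1 of the immunoproteasome and PA28 genes fell. Psmb8 differed by -0.63 ± 0.23 (adjusted p = 0.0513) and Psmb10 by -0.51 ± 0.15 (adjusted p = 0.0177). Psme2, Psme3 and Psme4 differed by -0.29, -0.11 and -0.18, Psmf1 by 0.14, and Psmg1 to Psmg4 by -0.21, -0.29, -0.18 and 0.30. The adjusted p of these 8 genes ran from 0.072 to 0.447. Psmc3ip and Psme3ip1 differed by -0.08 and 0.03.

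In heart, 3 of the 49 genes passed the test, about the share called among all genes, and the constitutive genes had a median near 0. Of the 35 constitutive genes 1 rose and 0 fell in T against C, with 15 above and 20 below 0 and a median of -0.02, while 2.70% of all genes rose and 3.04% fell. Psmd4 was at 7.83, 7.87 and 7.74 in the C hearts and at 8.49, 8.24 and 8.28 in the T hearts. All T hearts lay above all C hearts, and Psmd4 rose by 0.53 ± 0.12 (3 arrays per group, adjusted p = 0.00829).

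Psme1 was at 9.57, 9.58 and 9.58 in C and at 9.18, 9.02 and 9.07 in T, and fell by 0.49 ± 0.09 (adjusted p = 0.00361). Psme4 was at 9.86, 9.89 and 9.81 in C and at 9.47, 9.34 and 9.51 in T, and fell by 0.41 ± 0.08 (adjusted p = 0.00321). Neither gene overlapped between groups. Psme4 had differed by 0.11 in EDL and by -0.18 in SOL. These calls rest on 3 hearts per group: Psmd4 lost its call whichever of the 6 hearts was left out, Psme1 without any 1 of the C hearts or T replicate 2 or 3, and Psme4 without any 1 of the C hearts or T replicate 2. All 3 lost it with a single prior variance.

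Psmd11 and Psmd7, which rose in both muscles, differed by 0.33 and 0.32 in heart with adjusted p of 0.0126 and 0.0162. Psma7 differed by 0.11 ± 0.08 in heart (adjusted p = 0.421), and Psmd8 by -0.26 ± 0.08 (adjusted p = 0.0538). Psmd14 differed by -0.45 (adjusted p = 0.0204), Psma1 by -0.32 (adjusted p = 0.0192), Psma8 by -0.29 and Psmb5 by -0.30 (adjusted p = 0.084). Psmb11 differed by 0.40 (adjusted p = 0.0426), at means of 3.66 and 3.26. The ATPase genes lay between -0.16 (Psmc6) and 0.16 (Psmc1). Psma6, Psmb6, Psmc3 and Psmd10 lay within 0.02 of 0.

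The immunoproteasome genes of heart pointed down without passing the test. Psmb10 was at 7.67, 7.64 and 7.87 in C and at 7.25, 7.38 and 7.30 in T, without overlap, and differed by -0.41 ± 0.11 (adjusted p = 0.0205). Psmb8 was at 7.43, 6.48 and 8.10 in C and at 6.28, 6.60 and 6.21 in T, a difference of -0.97 ± 0.33 (adjusted p = 0.0641), with C spread over more than the difference. Psmb9 differed by -0.65 ± 0.24 (adjusted p = 0.0872) and Psme2 by -0.29 (adjusted p = 0.237). Psme3 differed by 0.03, Psmf1 by -0.09, and Psmg1 to Psmg4 by -0.09, -0.15, -0.21 and -0.11.

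**Figure D3:**
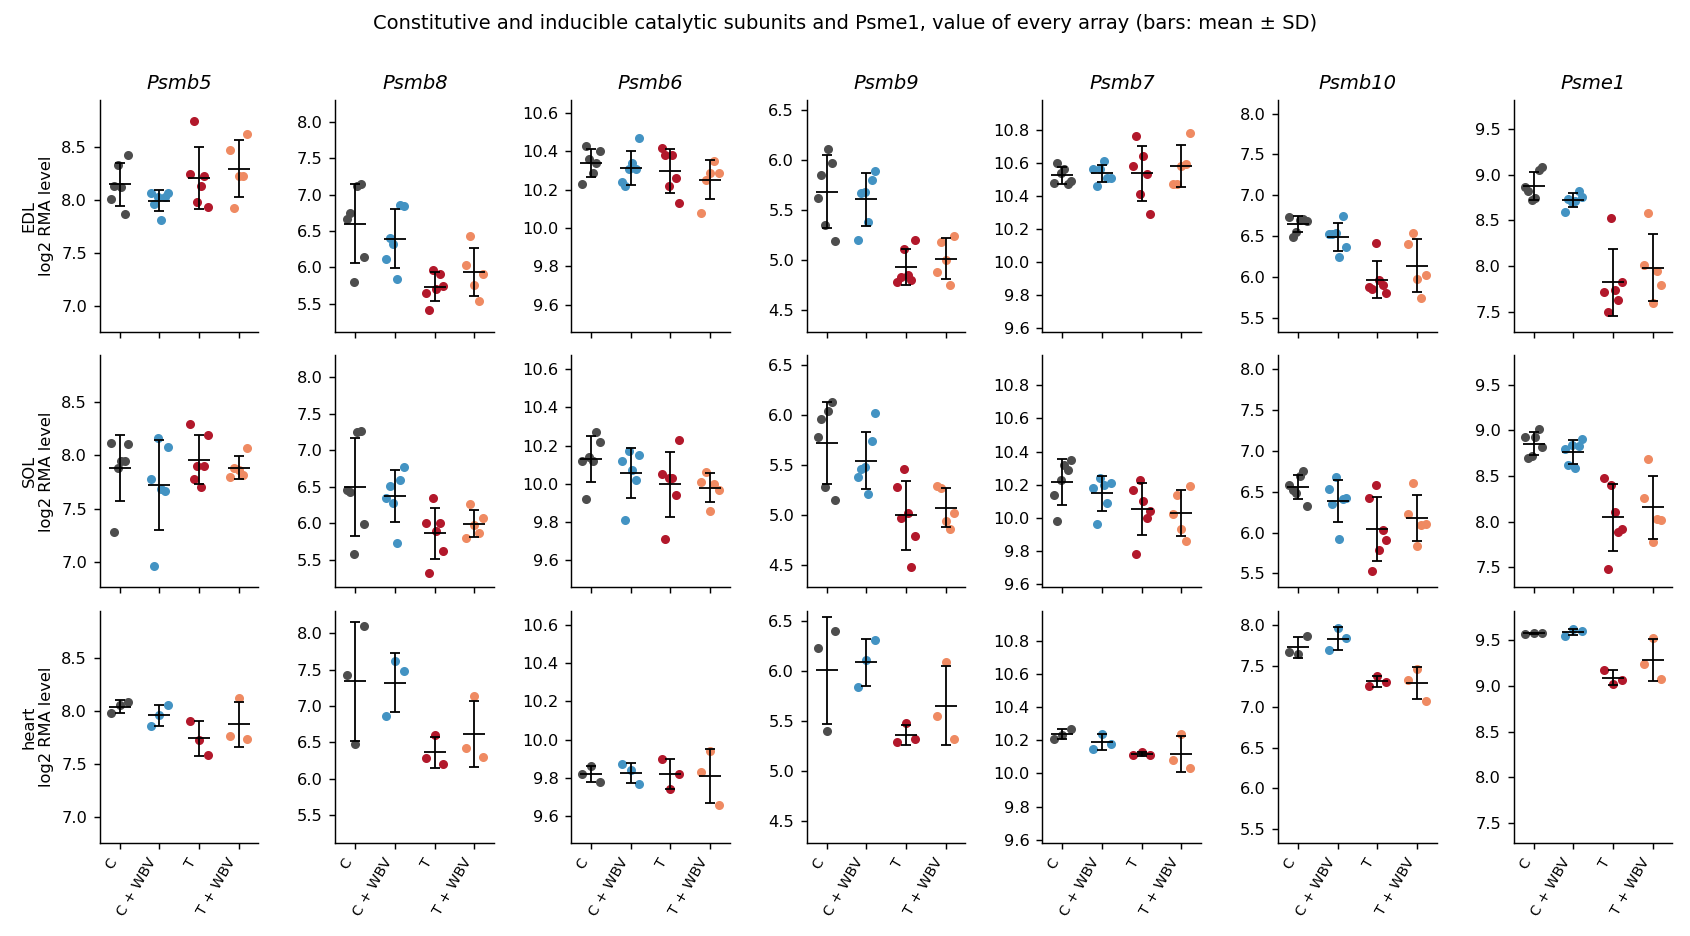
Log2 level of the constitutive catalytic subunits Psmb5, Psmb6 and Psmb7, each beside its inducible counterpart Psmb8, Psmb9 or Psmb10, and of Psme1, in every array (points; bars are mean ± SD). The constitutive subunits of EDL overlap between groups, whereas Psmb10 and Psme1 of T lie below every C array.

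Each inducible catalytic subunit takes the place of a constitutive one, so the log2 difference of the pair within an array was compared between T and C, over 3 pairs and 3 tissues (exact two-sided permutation test, adjusted over the 9 tests). In EDL, Psmb10 minus Psmb7 was lower in T by 0.69 (exact p = 0.00433, adjusted p = 0.039), with T at -4.91 to -4.0 and C at -4.12 to -3.74. Psmb9 minus Psmb6 differed by -0.71 (exact p = 0.0108, adjusted p = 0.0487) and Psmb8 minus Psmb5 by -0.93 (exact p = 0.0325, adjusted p = 0.0662). In SOL the pairs differed by -0.35, -0.59 and -0.71 in the same order, with adjusted exact p of 0.0662, 0.0662 and 0.117. In heart they differed by -0.29, -0.65 and -0.67, where 3 against 3 arrays cannot give an exact p below 0.1. The pair of Psmb10 and Psmb7 no longer had an adjusted p under 0.05 without T replicate 1, 2, 4 or 5 or C replicate 1, 4 or 5, nor the pair of Psmb9 and Psmb6 without any 1 of T replicates 1 to 5 or of C replicates 1, 2, 4 and 5.

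Leukocytes carry the immunoproteasome without stimulation, and their markers were therefore listed beside these genes. Of 24 measured leukocyte markers, the number that rose was 6 for EDL, 6 for SOL and 8 for heart, and 0 fell in any tissue, where 10.7%, 5.06% and 2.70% of all genes rose. Their mean level was 3.85 to 4.04 in C and 4.23 to 4.65 in T of EDL, 4.11 to 4.22 and 4.33 to 4.88 in SOL, and 4.49 to 5.22 and 5.27 to 5.52 in heart. The genes that rose were neutrophil markers (4 of 6 in EDL, 6 in SOL and 5 in heart) and macrophage markers (2 of 7, 0 and 3), with S100a8 up by 2.07 in EDL and S100a9 by 1.65 in SOL. Of 8 lymphocyte markers 0 passed the test in any tissue by limma, with 0 of 8 at an unadjusted p under 0.05 in EDL, 0 in SOL and 4 in heart, where their median difference was -0.58. Their part in the fall of Psmb8, Psmb9, Psmb10 and Psme1 was not tested. Of 4 endothelial markers Kdr fell by 1.06, 1.28 and 0.81 in EDL, SOL and heart, Cdh5 fell by 0.40 in heart and Pecam1 rose by 0.44 in EDL, and of 3 adipocyte markers 0 passed the test by limma, with 1, 0 and 3 at an unadjusted p under 0.05. Among all 18820 genes, 7277, 6083 and 4979 had an unadjusted limma p under 0.05 in EDL, SOL and heart.

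Of 18 measured genes of MHC class I presentation and interferon signalling, 6 fell and 1 rose in EDL, 7 fell and 0 rose in SOL, and 2 fell and 0 rose in heart, with medians of -0.36, -0.37 and -0.36, where 11.6%, 8.66% and 3.04% of all genes fell. Gbp3, an interferon-induced GTPase, fell by 1.94 in EDL, 1.85 in SOL and 2.18 in heart. Ifngr2, a chain of the interferon-gamma receptor, fell by 1.14, 0.83 and 0.95. Gbp2 fell by 1.02 in EDL and by 1.14 in SOL. Ifngr1, the other chain of the receptor, rose by 0.40 in EDL. Of 22 measured partners and regulators of the proteasome, 8 rose and 1 fell in EDL, 3 rose and 1 fell in SOL, and 0 passed the test in heart by limma, where 6 had an unadjusted p under 0.05. Over all genes 10.7% rose and 11.6% fell in EDL, and 5.06% rose and 8.66% fell in SOL. In heart, 4979 of all 18820 genes had an unadjusted limma p under 0.05. The largest changes in EDL were those of Txnl1, a redox protein bound to the regulatory particle, which rose by 0.86, of Zfand5, a proteasome activator of muscle wasting, which rose by 0.74, and of Nfe2l2, a factor that binds the antioxidant response element, which rose by 0.64. Rad23b, a ubiquitin shuttle, and Zfand5 and Txnl1 rose in SOL by 0.29, 0.33 and 0.40. Sem1, a small lid subunit, fell by 0.44 in EDL, against the direction of the other lid genes, and Ube3c, a ligase bound to the proteasome, fell by 0.27 in SOL.

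The tumour effect was compared between tissues within mice. Between SOL and EDL, 0 of the 49 genes passed the test by limma, while over all genes the tumour difference was larger in SOL for 0.935% and smaller for 1.27%. The tumour difference was smaller in SOL for 30 of the 35 constitutive genes, with a median of -0.26, and 10 of them had an adjusted p under 0.05, the smallest being 0.0101 (Psma1, -0.61). Without T replicate 3, 9 of the 49 genes passed the test. The shares of all genes at an adjusted p under 0.05 and without that mouse are not given here, so both counts are a description. Of the 5 immunoproteasome and PA28 genes 4 lay above 0 in this comparison, with a median of 0.17, and their smallest adjusted p was 0.203.

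Between heart and EDL the difference itself passed the test for 7 genes, against 1.93% higher and 1.75% lower among all genes. In the 3 T mice with both arrays, heart minus EDL was -1.51 to -2.14 for Psmd8, against -0.35 to -0.62 in the C mice, so that the tumour difference was lower in heart by 1.37 ± 0.22 (adjusted p = 0.00179). For Psma7 it was lower by 1.07 ± 0.19, for Psma5 by 0.99, for Psmd3 by 0.88, for Psmd2 by 0.80 and for Psmc2 by 0.79. Psme1 went the other way: heart minus EDL was 0.53 to 0.86 in C and 1.26 to 1.44 in T, a difference of 0.65 ± 0.11 (adjusted p = 0.00285). Between heart and SOL, Psmd8 passed the test with -1.06 ± 0.14 (adjusted p = 0.00214), against 0.638% higher and 0.356% lower among all genes. The count of 7 fell to between 0 and 3 when any 1 of the 6 mice was left out, and to 1 with a single prior variance.

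**Figure D4:**
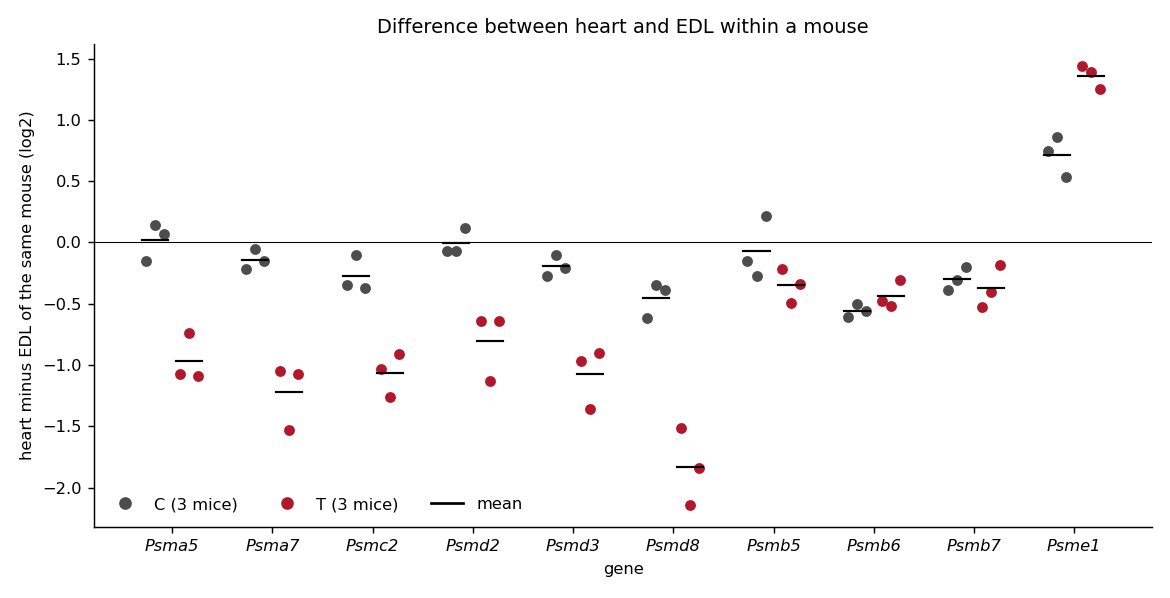
Heart minus EDL of the same mouse (log2) for 10 genes, in the 3 C mice and the 3 T mice with both arrays (points; lines are means). The T mice lie below the C mice for Psma5, Psma7, Psmc2, Psmd2, Psmd3 and Psmd8, overlap them for Psmb5, Psmb6 and Psmb7, and lie above them for Psme1.

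In C mice, 4 of the 5 immunoproteasome and PA28 genes were higher in heart than in EDL: Psmb10 was higher by 1.14 ± 0.10 (adjusted p = 1.3e-07), Psme2 by 0.95, Psmb8 by 0.78 and Psme1 by 0.71, and the assembly factor Psmg1 by 0.74. Psmb9 differed by 0.29 ± 0.13 (adjusted p = 0.0912). Of the constitutive genes 9 were lower in heart than in EDL and 0 were higher, while 18.6% of all genes were higher and 11.1% lower. The 9 were Psmd4 (-0.78), Psmb3 (-0.73), Psmb6 (-0.56), Psmd6 (-0.55), Psmd7, Psmd11, Psmd9, Psma3 and Psmb7 (-0.30). Against SOL, heart was higher in Psmb10 (1.14), Psmb8 (0.92), Psme1 (0.77), Psme2 (0.68), Psmg1 (0.62) and Psme4 (0.35), and lower in Psmd4 (-0.64), Psmd7 (-0.43), Psmd6 (-0.38) and Psmd11 (-0.35), while 12.4% of all genes were higher and 8.26% lower. Against SOL, the proteasome genes were called at about the shares of all genes, so these genes are named as a description. The counts against EDL and SOL also lost genes when 1 mouse was left out, to 10 or 11 of 14 and to 5 to 7 of 10. Leukocyte markers were also higher in heart (4.49 to 5.22) than in EDL (3.85 to 4.04) or SOL (4.11 to 4.22) of C mice, and their part in these differences was not tested.

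SOL and EDL of C mice were close. Psme4 (-0.44 ± 0.07), Psmb7 (-0.31 ± 0.08) and Psma3 (-0.23 ± 0.06) were lower in SOL and 0 genes were higher, while 7.73% of all genes were higher and 6.33% lower. Of the 35 constitutive genes 30 lay below 0, with a median of -0.11. The share of the proteasome genes that were lower in SOL was about that of all genes. Without C replicate 2, 1 gene passed the test.

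Trained mice with a tumour showed the same directions against C as T for the EDL genes named here, and both comparisons share the C arrays. Some genes changed sign between these comparisons in the other tissues, such as Psma2 in SOL and Psmd13 in heart. In EDL 17 of the 35 constitutive genes rose and 0 fell, with a median of 0.43, while 5.37% of all genes rose and 5.69% fell. Psma7 of the 5 T + WBV mice was at 9.89, 9.04, 10.3, 10.16 and 10.4 and rose by 0.98 (adjusted p = 0.00123). Psmd4 was at 9.2, 8.64, 9.62, 9.82 and 9.77 and rose by 0.87, and Psmd8 was at 9.69, 8.87, 10.07, 10.0 and 10.13 and rose by 0.86. In each of these genes replicate 2 was the lowest of the group, and it lay inside the range of C in all 3. Psmd11 rose by 0.83, Psmd2 by 0.73, Psma5 by 0.67 and Psmc2 by 0.59. Psme1 was at 8.01, 8.58, 7.59, 7.94 and 7.79 and fell by 0.90 (adjusted p = 0.000257), Psmb9 fell by 0.67 and Psmb10 by 0.51, whereas Psmb8 did not pass.

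With T + WBV replicate 2 left out, the count of 17 became 24. Without replicate 1, 3, 4 or 5 it was 9, 7, 5 or 8, without C replicate 1, 3 or 5 it was 10 each, and with only C and T + WBV in the fit it was 11. Of the immunoproteasome and PA28 genes 1 fell without T + WBV replicate 4. The calls among all genes in these fits are not given here. Whether the swing is particular to the proteasome genes was not tested.

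In SOL, Psmd4 (0.60), Psmd8 (0.51) and Psmd11 (0.51) rose and Psme1 fell by 0.70 in T + WBV against C, while 2.01% of all genes rose and 2.66% fell. Psmd8 was at 9.2, 8.96, 9.66, 9.39 and 9.39, all above C. The 3 genes that rose became 5 without T + WBV replicate 2, 1 without replicate 4 or 5, and 0 without replicate 3, and Psme1 lost its call without T + WBV replicate 3, 4 or 5 or C replicate 5. In heart 0 genes passed the test by limma, against 0.999% higher and 0.473% lower among all genes. An unadjusted limma p under 0.05 was found for 13 of the 49 and for 3968 of all 18820 genes. Without heart T + WBV replicate 2, which is the mouse of muscle replicate 2, 3 constitutive genes rose and 3 fell, and 2 of the immunoproteasome and PA28 genes fell.

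Against C + WBV, which holds training equal, 16 constitutive genes rose and Psmb9 and Psme1 fell in EDL, by 0.59 and 0.74, while 5.27% of all genes rose and 6.60% fell. Psma7 rose by 1.09, Psmd4 and Psmd8 by 0.88 each and Psmd11 by 0.86. Leaving out T + WBV replicate 3, 4 or 5 reduced the 16 to 6, and leaving out T + WBV replicate 1 or C + WBV replicate 2 or 5 to 10. Of the fallen genes 1 was left without T + WBV replicate 1, 3 or 4 or C + WBV replicate 2, 3, 5 or 6. In SOL Psmd4 (0.68), Psmd11 (0.57), Psmb1 (0.53), Psmd8 (0.51) and Psmd3 (0.45) rose and 0 fell, while 1.94% of all genes rose and 1.66% fell. These 5 became 9 without T + WBV replicate 2, 2 without T + WBV replicate 3, 4 or 5 or C + WBV replicate 2, and 3 without T + WBV replicate 1 or C + WBV replicate 3 or 5. In heart 0 passed the test by limma, against 1.01% higher and 0.478% lower among all genes. An unadjusted limma p under 0.05 was found for 11 of the 49 and for 3841 of all 18820 genes. Without heart T + WBV replicate 2, 2 constitutive genes rose and 2 fell, and 2 of the immunoproteasome and PA28 genes fell.

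Training itself changed none of the 49 genes past the threshold by limma. The effect of training in tumour-bearing mice, its effect in C mice and their difference were each tested, and each gave 0 calls among the 49 genes in each tissue and 0.0% among all 18820. At an unadjusted p under 0.05, these tests held 1, 0 and 0 of the 49 genes for EDL, the same numbers for SOL, and 3, 2 and 5 for heart, where 596 to 1407 of all genes passed that level per test and tissue. In T + WBV against T, 30 of the 35 constitutive genes lay below 0 in EDL, with a median of -0.08, and 33 of 35 in SOL, with a median of -0.09. The 5 immunoproteasome and PA28 genes lay above 0 in both muscles, with medians of 0.16 and 0.13. These genes share the same arrays, so the counts are a description, and the heart had medians of -0.01 and 0.19.

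The intervals show what the arrays could not resolve. In EDL, T + WBV minus T was -0.17 (-0.58 to 0.24) for Psma7, -0.21 (-0.56 to 0.15) for Psmd4 and 0.16 (-0.15 to 0.47) for Psme1. In SOL it was -0.25 (-0.48 to -0.03) for Psmd8, with an unadjusted p of 0.0305 and an adjusted p of 0.928, and 0.11 (-0.20 to 0.41) for Psme1. In heart the thymic subunit Psmb11 had the smallest p, with -0.49 (-0.75 to -0.23, adjusted p = 0.351), followed by Psmd13 with -0.29 (-0.45 to -0.12, adjusted p = 0.385). None of the 9 catalytic pair differences passed in T + WBV against T, with exact permutation p adjusted over the 9 of 0.774 or more.

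**Figure D5:**
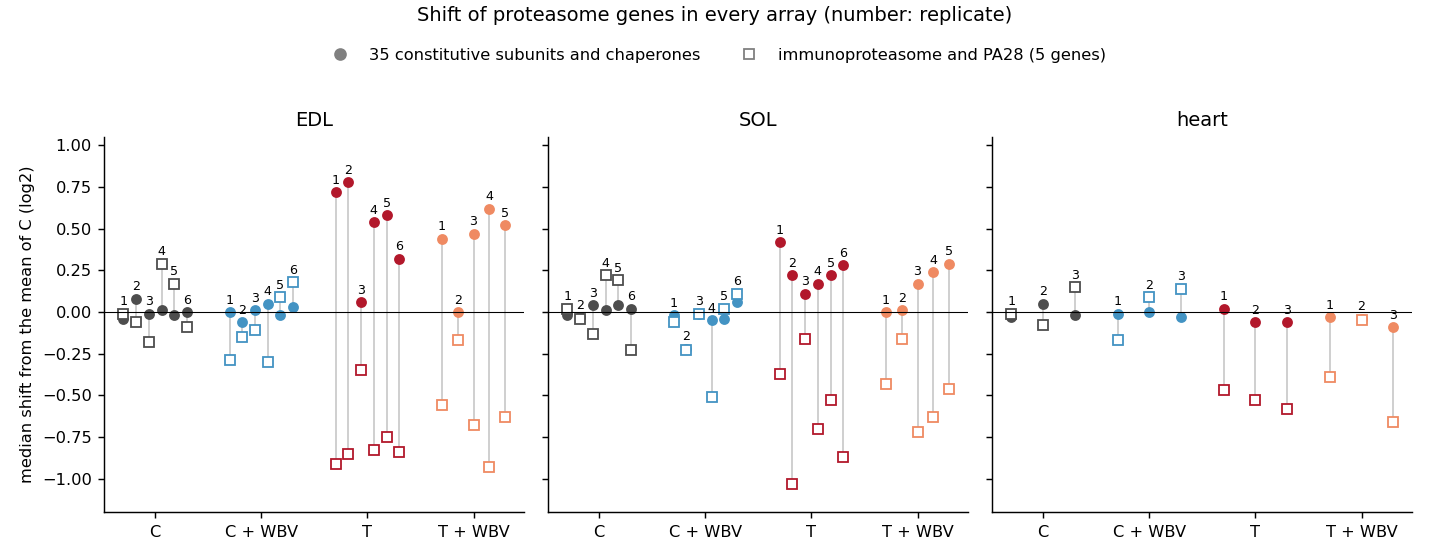
Median difference from the mean of C over the 35 constitutive genes (circles) and over the 5 immunoproteasome and PA28 genes (squares) in every array (log2), with the replicate number beside each. In EDL T replicate 3 and T + WBV replicate 2 have circles at 0.06 and 0.00 and squares at -0.35 and -0.17, and in heart the circles stay near 0 while the squares of T lie between -0.58 and -0.47.

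Single mice carried both shifts to different degrees. Over the 35 constitutive genes of EDL, the median shift from the mean of C was 0.72, 0.78, 0.06, 0.54, 0.58 and 0.32 in T replicates 1 to 6 and 0.44, 0.00, 0.47, 0.62 and 0.52 in T + WBV replicates 1 to 5. T replicate 3 and T + WBV replicate 2 stood apart at the level of C, whose arrays ran from -0.04 to 0.08. The same arrays had the smallest falls of the 5 immunoproteasome and PA28 genes, -0.35 and -0.17, against -0.91 to -0.75 and -0.93 to -0.56 in the others of their groups. T replicate 3 was the lowest of its group in 27 of the 35 constitutive genes, and T + WBV replicate 2 in 30.

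These 2 mice had the highest body mass of their groups at day 19, 91.0% and 100.9% of the mean of day 0 and day 1, where the other tumour-bearing mice had 75.9% to 87.8%. The part of body mass in the shifts was not tested. Without T replicate 3 in EDL, 27 constitutive genes rose and 4 immunoproteasome and PA28 genes fell in T against C. In SOL the shifts were 0.11 to 0.42 in T and 0.00 to 0.29 in T + WBV, with T replicate 3 the lowest of T and T + WBV replicates 1 and 2, at 0.00 and 0.01, the lowest of T + WBV. The immunoproteasome and PA28 genes of SOL had their smallest falls in T replicate 3 and T + WBV replicate 2, -0.16 in each, and stood at -0.43 in T + WBV replicate 1.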

How the data were processed

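Expression of 58 arrays (GeneChip Mouse Gene 1.1 ST) was analysed from the table of log2 intensities that the authors deposited after RMA normalisation. The version of RMA and the arrays normalised together are not given in the sources used here. Of 35556 probe sets, 21218 carry 1 symbol and were averaged per symbol to 18820 genes. The study's methods describe a custom gene definition, whereas the table used here lists probe sets as the array annotates them.

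Groups were taken from the labels. limma 3.58.1 (R 4.3.3) was fitted per tissue with the 4 groups as terms and a trended prior variance, and on within-mouse differences between tissues, with Benjamini-Hochberg adjustment over all genes and a threshold of 0.01. Catalytic pairs were compared with exact permutation tests (scipy 1.17.1). The scripts were tested on simulated data. Where labels share replicate numbers, the deviations of T and C arrays from their group means were compared. For arrays of 1 number these deviations correlated at -0.079 to 0.144, so no block was used.

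Named were, per particle and tissue, the members with the 2 largest and the smallest difference of T against C, all immunoproteasome, activator, inhibitor and assembly genes, and up to 3 genes per further list. Members and lists (partners and regulators, MHC class I and interferon, leukocyte, endothelium, adipocyte and muscle markers) were chosen with earlier results of these data known. Of the muscle and heart markers, 2 of the 5 fast markers fell in EDL and 1 in SOL, 1 of the 5 slow markers rose and 1 fell in heart, and 1 of the 5 heart markers rose in SOL. Over all genes, T against C had 11.6% fallen in EDL, and 5.06% risen and 8.66% fallen in SOL. In heart, 2.70% of all genes rose and 3.04% fell. Alternatives covered the prior variance, threshold, normalisation, probe set, filter, samples, blocks and single arrays.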

Additional observations from a re-analysis of the deposited data

Results flagged for a closer look

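In 9 of 104 groups of 4 to 10 arrays tested, 1 array stood far from the others. Chance alone gives about 5% where groups are independent. Many of these groups are genes on the same arrays, so that share is no reference for the count. In EDL, Psmb10 of T replicate 3 was 6.41 (next 5.96) and Psme1 of the same array 8.53 (next 7.82). In T + WBV replicate 2 of EDL, Psmd11 was 9.88 (next 10.72) and the median shift of the 35 constitutive genes was 0.0 (next 0.44). Psma1 of C + WBV replicate 4 of EDL was 8.69 (next 8.48). In SOL, C replicate 2 was low in Psmb5, 7.28 (next 7.88), and in Psmd8, 8.64 (next 8.80). Psmd4 of C + WBV replicate 2 of SOL was 8.01 (next 8.32), and Psmb5 of T + WBV replicate 5 was 8.07 (next 7.88).

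The tumour difference itself differed between tissues for 8 pairs of gene and comparison by limma. Heart minus EDL was -0.99 for Psma5, -1.07 for Psma7, -0.79 for Psmc2, -0.80 for Psmd2, -0.88 for Psmd3, -1.37 for Psmd8 and 0.65 for Psme1 on the log2 scale. Heart minus SOL was -1.06 for Psmd8.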

How the results depend on the processing

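In T against C of EDL, the 24 constitutive genes that rose stayed between 21 and 27 under the alternatives, and 26 of the 30 members called kept their call whichever array was left out (lost Psma1, Psmb3, Psmd13 and Psmf1). In SOL 8 of 11 did, and in heart 0 of 3. The training comparisons gave 0 calls under the alternatives run. Alternatives for the comparisons between tissues and for T + WBV against C + WBV were chosen after seeing the data. The cause of the changes below was not tested. For each alternative, here and above, the calls among all genes are not given, so the counts describe the proteasome genes only.

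With the replicate block, constitutive genes that rose numbered 7 in T + WBV against C and 9 against C + WBV in EDL, and 0 in T against C of heart. Immunoproteasome and PA28 genes that fell numbered 1 in T + WBV against C + WBV of EDL, 1 in T against C of SOL and 0 in T + WBV against C of SOL. The block moved no other count by over 1.5 times.

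With the 2 groups alone, T + WBV against C of EDL gave 11 constitutive genes risen and 1 immunoproteasome and PA28 gene fallen, T + WBV against C + WBV of SOL 0 risen, and T against C of heart 3 constitutive genes risen, 2 fallen and 2 immunoproteasome and PA28 genes fallen. With the mouse as a random block, 1 constitutive gene fell in T + WBV against C of EDL, 2 immunoproteasome and PA28 genes fell in T + WBV against C and 1 against C + WBV of SOL, and heart T against C gave 0 and 0. With 1 prior variance heart T against C gave 0 and 0, and the tumour difference of heart against EDL and SOL 1 and 0. With the highest probe set, the tumour difference gave 2 for SOL against EDL and 2 for heart against SOL. With genes above the median level, 1 immunoproteasome and PA28 gene fell in T + WBV against C + WBV of SOL and 1 in heart, and 2 constitutive genes rose in T against C of heart. At an adjusted p under 0.05, constitutive counts were 1 fallen (T + WBV against C, EDL), 25 (T + WBV against C + WBV, EDL), 15 (T against C, SOL), 8 and 10 (T + WBV against C and C + WBV, SOL), and 4 risen and 4 fallen (T against C, heart), while fallen immunoproteasome and PA28 genes were 2 and 1 (SOL, T + WBV), 2 (heart, T) and 1 and 1 (heart, T + WBV). A second quantile normalisation gave -0.63 for Psmb9 minus Psmb6 of EDL, whose adjusted p was then no longer under 0.05.

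Leaving out 1 array, constitutive genes that rose and immunoproteasome and PA28 genes that fell ranged over 5 to 24 and 1 to 4 (T + WBV against C, EDL), 6 to 24 and 1 to 3 (against C + WBV, EDL), 7 to 14 and 1 to 3 (T against C, SOL), 0 to 5 and 0 to 2 (T + WBV against C, SOL), 2 to 9 and 0 to 1 (against C + WBV, SOL), 0 to 0 and 0 to 1 (T against C, heart), 0 to 3 and 0 to 2 (T + WBV against C, heart, with 0 to 3 constitutive fallen) and 0 to 2 and 0 to 2 (against C + WBV, heart, with 0 to 2 fallen). Calls between tissues ranged over 1 to 3 (SOL minus EDL), 10 to 11 (heart minus EDL) and 5 to 7 (heart minus SOL) in C, and for the tumour difference over 0 to 9, 0 to 3 and 0 to 1. Pair differences ranged over -1.12 to -0.76 (Psmb8 minus Psmb5), -0.82 to -0.61 (Psmb9 minus Psmb6) and -0.81 to -0.62 (Psmb10 minus Psmb7) in EDL, and over -0.72 to -0.49 and -0.42 to -0.29 (the last 2 pairs) in SOL. The 3 hearts per group limit what can be called there.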
